A study of Homo sapiens with 3 samples.

Results

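The genes described here are those at least 2-fold higher or lower in Hep3B cells that overexpressed HKR3 than in control cells. They were chosen by the difference log2((FPKM + 1)/(FPKM + 1)) between the HKR3 library and the control library, where FPKM is fragments per kilobase of transcript scaled by library size. Of 10974 genes whose mean reached 1 FPKM over the 3 libraries of the study, 883 passed 2-fold (8.05%), of which 606 were higher (5.52%) and 277 lower (2.52%). Beyond the 10 genes at each end there were 863, 596 higher and 267 lower, and most of what follows is about these. The difference itself chose the genes, so its values describe them and test nothing.

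Hep3B is a cell line from a human hepatocellular carcinoma. The study sequenced messenger RNA from a control, from cells transfected with a pcDNA3.1 plasmid that expresses HKR3, and from cells given a small interfering RNA against TERT, the catalytic subunit of telomerase. The control carries NT and Empty in its title and the transfection reagent Fugene as its treatment, and the sources used here do not say which nucleic acid, if any, it received. All cells were grown in DMEM with fetal bovine serum, and the labels describe transfection with Fugene HD at normal oxygen for all of them. Each group held 1 library, so replicate error could not be measured, and values are given without p, SD or SE. Plasmid load, day of culture and HKR3 itself cannot be told apart in this design.

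HKR3 is an older name of ZBTB48, also called TZAP, a protein with a BTB domain and zinc fingers that binds the repeats of telomeres and is also known to bind some gene promoters. Immediate early genes encode short-lived regulators that serum, stress or cytokines induce without new protein synthesis, and many of their transcripts are unstable. Hepatoma cells keep part of the metabolic and secretory programme of hepatocytes. As a check of the label, ZBTB48 was at 4.91 FPKM in control cells, 2842 with HKR3 and 4.89 in the siTERT-labelled library. Transcripts of the plasmid and of the cells' own gene were not separated, and the share of cells that took up the plasmid is not given in the labels. All 10 hepatocyte markers examined were measured, and ALB, which encodes albumin, was at 3317 FPKM in control cells and 2703 FPKM with HKR3. Of 10 immune cell markers, CD14, CD68 and LYZ passed the filter on low values, and no fibroblast or endothelial marker did. All 3 lay below 0 and none passed 2-fold, with a median difference of -0.80, and their summed level was 431 FPKM in control cells, 243 with HKR3 and 441 in the siTERT-labelled library. Their part in the lower genes was not tested, and the general leukocyte marker PTPRC was below the filter.

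The sum of FPKM over the whole table was 596536 for control cells, 535516 with HKR3 and 579410 for the library labelled siTERT. Because the sums differed, each difference was also calculated with each library rescaled to 1 common sum. That scaling moved the median of all tested genes by 0.14 in log2, from -0.02 to 0.12, and gave 841 higher genes (7.66%) and 165 lower genes (1.5%), 9.17% of tested genes together. The share of higher genes among those past 2-fold was 68.6% as deposited and 83.6% after scaling. All 606 higher genes stayed 2-fold higher, whereas 112 of the 277 lower genes no longer reached 2-fold. No gene of the 883 changed sign. Scaling raises every HKR3 value against the control, so no higher gene could drop out. Its shift was too small to turn the sign of a 2-fold difference.

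Higher genes were mostly weakly expressed in the control, with a median of 4.77 FPKM there, 14.8 FPKM with HKR3 and 5.85 FPKM in the library labelled siTERT. Between 2-fold and 3-fold lay 438 of them, 82 passed 4-fold and 15 passed 8-fold, with the pseudocount of 1 FPKM included. The lower genes had medians of 19.2, 7.45 and 15.4 FPKM in the same order. Over all tested genes the control median was 12.7 FPKM. The control level is part of the rule, which favours low control values in higher genes and high ones in lower genes. Median mean level over the 3 libraries was 8.55 FPKM in higher genes, 14.2 FPKM in lower genes and 13.2 FPKM in all. Differences of the lower genes were smaller, and 252 of 277 lay between 2-fold and 3-fold and 4 beyond 4-fold. In the library labelled siTERT, 568 of 606 higher genes and 245 of 277 lower genes were nearer to the control than to the HKR3 library on the log2 scale. These genes were chosen for a wide distance between the control and the HKR3 library. The same share over all tested genes was not calculated, so these counts have no background to be read against. TERT was not lower in the library labelled siTERT, so this library is named by its label throughout, and it shares the control with the HKR3 comparison. At the edge of the rule, CXCL10, at 1.24 and 3.49 FPKM in the control and the HKR3 library, was just inside on the higher side and KLHL20, at 2.07 and 5.13 FPKM, just outside. On the lower side PLEKHB1, at 1.86 and 0.431 FPKM, was just inside and SSBP4, at 51.4 and 25.2 FPKM, just outside. In bulk RNA, a change in the make-up of the culture and a change in RNA per cell cannot be told apart.

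**Figure D1:**
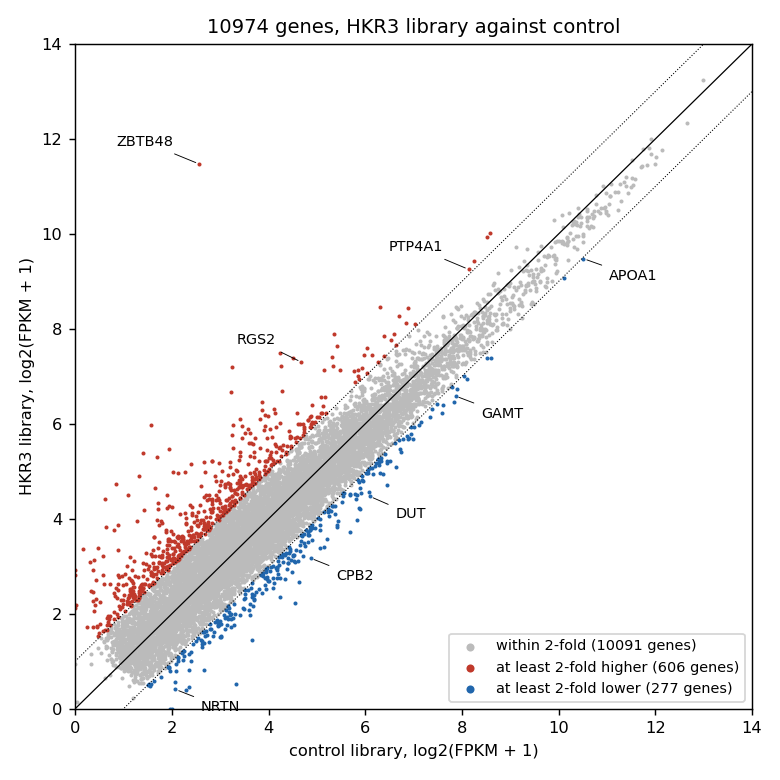
Level of each of the 10974 tested genes in the control (horizontal axis) and the HKR3 library (vertical axis), both as log2(FPKM + 1), 1 point per gene and 1 library per group. The 606 higher genes lie above the upper dotted line and the 277 lower genes below the lower one, with ZBTB48 far from all others at 2842 FPKM.

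The genes ranked 11 to 40 from the top came from different families. RASD1, a small RAS-like GTPase induced by glucocorticoids, was at 1.14 FPKM in control cells, 21.7 with HKR3 and 2.72 in the siTERT-labelled library, a log2 difference of 3.41. DUSP1, a phosphatase that inactivates MAP kinases, was at 17.8 FPKM in control cells, 179.9 with HKR3 and 19.2 in the siTERT-labelled library. DUSP10, of the same family, was at 0.847 FPKM in control cells, 13.6 with HKR3 and 1.62 in the siTERT-labelled library. In all 3 the library labelled siTERT lay nearer to the control than to the HKR3 library. MXD1, a repressor that competes with MYC for MAX, was at 3.07 FPKM in control cells, 30.7 with HKR3 and 3.90 in the siTERT-labelled library. CCNG2, an atypical cyclin linked to growth arrest, was at 2.72 FPKM in control cells, 21.6 with HKR3 and 2.90 in the siTERT-labelled library. KLF10, a repressor induced by TGF-beta, was at 9.58 FPKM in control cells, 68.1 with HKR3 and 9.76 in the siTERT-labelled library. Its level in the library labelled siTERT differed from the control by less than 1 FPKM. ARRDC3, an arrestin-domain protein that acts in receptor trafficking, was at 8.58 FPKM in control cells, 62.0 with HKR3 and 8.83 in the siTERT-labelled library. RGS2, which limits signalling by Gq, was at 24.6 FPKM in control cells, 157 with HKR3 and 29.6 in the siTERT-labelled library, and BMP2, a ligand of the TGF-beta superfamily, at 13.6 FPKM in control cells, 87.1 with HKR3 and 21.5 in the siTERT-labelled library. BMP2 was the clearest of these 3 to lie above the control in the library labelled siTERT as well.

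The next genes of these ranks were weakly expressed in the control, some of them below 1 FPKM. RBM24, an RNA-binding protein that regulates splicing in muscle, was at 0.559 FPKM in control cells, 13.2 with HKR3 and 0.573 in the siTERT-labelled library. DLX2, a homeobox gene of forebrain and jaw development, was at 0.235 FPKM in control cells, 7.55 with HKR3 and 0.0586 in the siTERT-labelled library. PLK2, a polo-like kinase, was at 0.752 FPKM in control cells, 12.5 with HKR3 and 1.03 in the siTERT-labelled library. These levels rest on few fragments in the control, an estimated 15.6 for RBM24 and 5.97 for DLX2, so the size of their difference is imprecise while the HKR3 value is well above it. THBS1, encoding the matrix protein thrombospondin, was at 3.38 FPKM in control cells, 30.0 with HKR3 and 5.28 in the siTERT-labelled library, and BMF, a BH3-only member of the BCL2 family, at 1.68 FPKM in control cells, 17.1 with HKR3 and 1.73 in the siTERT-labelled library. CXCL3, a chemokine for neutrophils, was at 2.27 FPKM in control cells, 19.2 with HKR3 and 3.90 in the siTERT-labelled library. SMIM11, at 0.0043 and 6.04 FPKM in the control and the HKR3 library, shares 93.2% of its sequence with another entry of the table, so its level is uncertain.

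**Figure D2:**
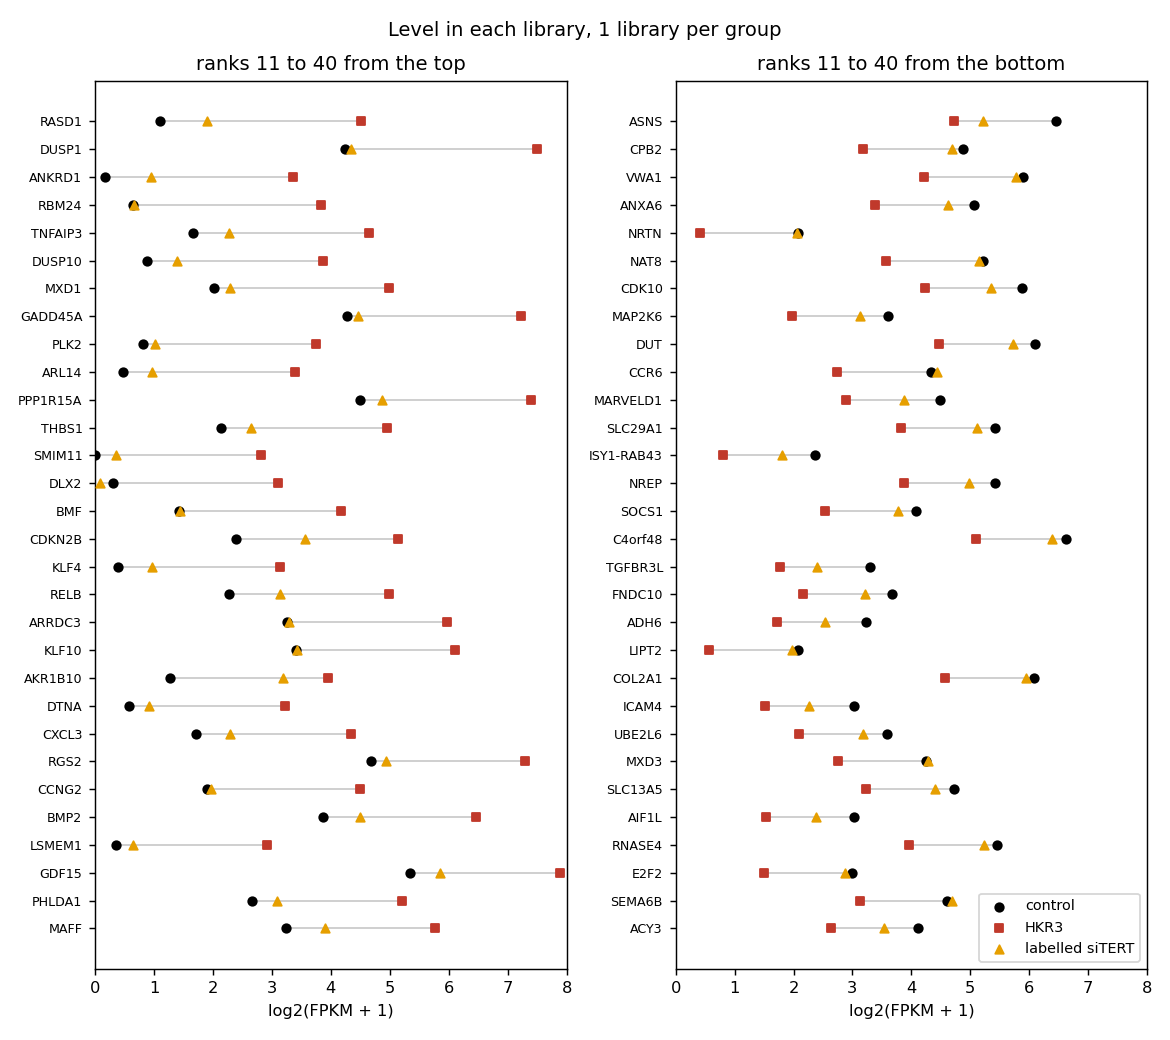
Levels as log2(FPKM + 1) of the genes ranked 11 to 40 from the top (left) and from the bottom (right) in the control (circles), the HKR3 library (squares) and the library labelled siTERT (triangles), 1 library each. RASD1 leads the left panel at 21.7 FPKM with HKR3 against 1.14 FPKM in control cells, and most triangles lie nearer to the circles than to the squares.

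Promoter sequence was examined in RefSeq for the genes with a single start window on GRCh38.p14, 351 higher, 147 lower and 6369 of all tested genes, each over 250 bases before the start to 50 after it. Of the 6 named genes with a match and the largest differences, the 4 whose windows hold letters bound by CREB and ATF, AP-1 or NF-kB are shown from 250 bases upstream to the start, 5′ to 3′ on the strand of the gene. RASD1, with an E2F match, and MXD1, with an antioxidant element and CCAAT boxes, are not shown. Neither holds a match to those letters before the start.

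DUSP1: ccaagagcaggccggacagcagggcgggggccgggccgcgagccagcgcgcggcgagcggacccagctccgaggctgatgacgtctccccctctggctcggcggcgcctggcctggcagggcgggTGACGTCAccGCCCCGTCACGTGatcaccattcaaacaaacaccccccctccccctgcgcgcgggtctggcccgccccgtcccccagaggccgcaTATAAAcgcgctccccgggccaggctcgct
PPP1R15A: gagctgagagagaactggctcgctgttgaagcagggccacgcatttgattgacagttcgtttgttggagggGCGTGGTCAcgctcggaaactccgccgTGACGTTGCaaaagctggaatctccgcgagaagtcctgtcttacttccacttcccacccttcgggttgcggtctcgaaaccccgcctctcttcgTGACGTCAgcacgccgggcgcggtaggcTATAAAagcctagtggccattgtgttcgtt
TNFAIP3: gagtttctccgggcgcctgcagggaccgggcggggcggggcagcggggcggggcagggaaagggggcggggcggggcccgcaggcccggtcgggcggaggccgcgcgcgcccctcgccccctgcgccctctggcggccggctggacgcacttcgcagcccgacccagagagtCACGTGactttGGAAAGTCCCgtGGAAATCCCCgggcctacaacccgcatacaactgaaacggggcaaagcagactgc
ANKRD1: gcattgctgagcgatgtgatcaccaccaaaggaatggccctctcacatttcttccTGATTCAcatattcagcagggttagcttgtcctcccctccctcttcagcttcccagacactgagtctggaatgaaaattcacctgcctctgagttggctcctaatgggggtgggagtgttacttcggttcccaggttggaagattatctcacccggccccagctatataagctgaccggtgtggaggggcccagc

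Capitals mark the matches found on either strand. DUSP1 lies at chr5:172771196-172771445 on the minus strand, and its window holds the cyclic AMP response element TGACGTCA 125 bases before the start and a TATA box, TATAAA, 30 bases before it. An antioxidant element, TGACNNNGC, and an E-box, CACGTG, lie between them and overlap by 2 letters. PPP1R15A, a stress-induced regulator of the phosphatase of eIF2 alpha, lies at chr19:48872171-48872420 on the plus strand and holds TGACGTCA 58 bases and TATAAA 30 bases before the start, with 2 antioxidant elements further upstream. TNFAIP3, an inhibitor of NF-kB signalling, lies at chr6:137867009-137867258 on the plus strand and holds an E-box and matches to the NF-kB letters GGG, any 2 bases, TTTCC at 67 and 55 bases before the start. The first of these also matches the second form searched, GGGA, any 2 bases, TTCC. ANKRD1, a target of YAP, lies at chr10:90921088-90921337 on the minus strand and holds a match to the AP-1 letters TGANTCA 195 bases before the start. A match describes letters only and does not show that a factor binds there.

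Across all windows, TGACGTCA was present in 6.84% of higher genes, 1.36% of lower genes and 3.96% of all tested genes. The first NF-kB form was present in 5.13%, 1.36% and 2.36% in the same order, and TGANTCA in 5.98%, 3.40% and 3.85%. TATAAA was present in 11.7% of higher genes, against 6.12% and 5.21%. The ETS letters CCGGAAG, common in promoters of housekeeping genes, were in 16.2% of higher genes and 6.12% of lower genes, against 23.5% of all. The single telomere repeat TTAGGG was in 9.69%, 5.44% and 8.42%, and the same repeat as 2 adjoining units was in no window of a higher or lower gene and in 2 of 6369 windows. E-boxes were in 12.8%, 6.80% and 10.9%, antioxidant elements in 14.2%, 17.7% and 15.7%, CCAAT boxes in 42.2%, 40.1% and 38.7%, and the xenobiotic response letters TTGCGTG in 1.99%, 1.36% and 1.85%. Both E2F forms, the second NF-kB form, both serum response forms, and the NRF1, YY1 and CARE motifs were each in under 3% of every set. The counts behind these shares are small, with 24 higher genes and 2 lower genes for TGACGTCA, and no share was tested.

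Several families of transcription factors and other zinc finger proteins held a larger share of higher genes than the 5.52% of all tested genes, and few lower genes against 2.52%. No family share was tested. Scaling to a common sum moved the family medians by about as much as that of all tested genes, from -0.02 to 0.12. A scaled family median is therefore to be read against 0.12. Of 69 zinc finger regulators outside the ZNF, ZBTB and KLF families, 16 were higher and none lower, and the median difference was 0.61 against -0.02 over all tested genes. ZFP36, counted here for its zinc fingers, is an RNA-binding protein and no transcription factor, promotes decay of cytokine messages, and was at 10.01 FPKM in control cells, 51.4 with HKR3 and 12.7 in the siTERT-labelled library. BCL6, a repressor of germinal centre B cells, was at 3.06 FPKM in control cells, 11.8 with HKR3 and 3.50 in the siTERT-labelled library, and HIVEP2, which binds kappa B-like sequences, at 0.843 FPKM in control cells, 4.62 with HKR3 and 1.34 in the siTERT-labelled library. SP4, IKZF5 and HIVEP1 had differences of 1.47, 1.42 and 1.38. The rule itself set all 6 above the control, and with HKR3 they were also above the library labelled siTERT. This family was weakly expressed, with a median level of 3.53 FPKM against 13.2 FPKM over all tested genes, and the part of expression level in the result was not tested.

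Of 355 genes named ZNF, 40 were higher and 1 lower, with a median of 0.43, and 279 lay above 0. Many encode KRAB zinc finger repressors of mobile elements. This list and those of THAP, ZSWIM and ZBED genes and of CLK kinases were assembled after the values were seen. The highest was ZNF461, at 0.291 FPKM in control cells, 4.51 with HKR3 and 1.001 in the siTERT-labelled library. ZNF281, a regulator of pluripotency and stress genes, was at 18.0 FPKM in control cells, 63.9 with HKR3 and 20.8 in the siTERT-labelled library. The median level of the ZNF genes was 4.29 FPKM. Of 24 THAP, ZSWIM and ZBED genes, 6 were higher and none lower, with THAP1 at 7.54 FPKM in control cells, 25.1 with HKR3 and 8.39 in the siTERT-labelled library.

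Homeobox genes, which pattern the embryo and keep cell identity, had 13 of 66 higher and 1 lower, with a median of 0.23 that was 0.35 after scaling to a common sum. HOXA3 was at 2.998 FPKM in control cells, 18.1 with HKR3 and 3.21 in the siTERT-labelled library, and HOXA5 at 2.87 FPKM in control cells, 9.96 with HKR3 and 2.82 in the siTERT-labelled library. SATB1, a chromatin organiser, was at 0.998 FPKM in control cells, 5.08 with HKR3 and 0.796 in the siTERT-labelled library. The lower member, POU2AF1, is no homeobox gene but a coactivator of octamer-binding factors in B cells that the list takes in by its symbol, at 5.16 and 1.46 FPKM in the control and the HKR3 library. Of 22 forkhead genes, 4 were higher and none lower, with a median of 0.32. FOXA2, a pioneer factor of the liver, was at 30.4 FPKM in control cells, 65.0 with HKR3 and 33.4 in the siTERT-labelled library, and FOXC1 at 1.17 FPKM in control cells, 5.72 with HKR3 and 1.12 in the siTERT-labelled library. FOXA2 was already well expressed in the control, whereas FOXC1 and FOXD1 lay near the filter.

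ETS genes were higher in 6 of 17 cases and lower in none, with a median of 0.47. ELF3, an epithelial ETS factor induced by cytokines, was at 16.6 FPKM in control cells, 74.5 with HKR3 and 28.6 in the siTERT-labelled library. ETS2, a nuclear target of RAS and ERK signalling, was at 9.04 FPKM in control cells, 31.5 with HKR3 and 14.5 in the siTERT-labelled library. ERF, a repressor that ERK signalling exports from the nucleus, was at 69.1 FPKM in control cells, 173 with HKR3 and 63.6 in the siTERT-labelled library. ELF3 and ETS2 were also above the control in the library labelled siTERT, and ERF was below it. Of 42 bZIP genes outside AP-1 and ATF4, 9 were higher and none lower, with a median of 0.45. MAFK and MAFG, the small MAF partners of NRF2 and BACH1, were at 6.85, 35.1 and 7.64 FPKM and 6.48, 28.9 and 6.99 FPKM respectively in the control, the HKR3 library and the library labelled siTERT. MAFF, of the same family, was at 8.47, 53.2 and 13.9 FPKM in that order. CEBPD, an acute-phase regulator of the liver, was at 39.5, 147 and 63.1 FPKM in the same order. CREBRF, a negative regulator of CREB3, was at 0.523, 5.15 and 1.06 FPKM in that order. The rule itself set all of these above the control, and with HKR3 they were also above the library labelled siTERT.

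Among other regulators, AHR, the aryl hydrocarbon receptor, was at 14.8 FPKM in control cells, 51.4 with HKR3 and 23.5 in the siTERT-labelled library. GATA2, a regulator of blood stem cells and endothelium, was at 3.89 FPKM in control cells, 15.3 with HKR3 and 6.02 in the siTERT-labelled library. BHLHE40, a repressor tied to hypoxia and the circadian clock, was at 9.61 FPKM in control cells, 25.1 with HKR3 and 12.2 in the siTERT-labelled library, and TFE3, a lysosomal regulator, at 24.1 FPKM in control cells, 62.8 with HKR3 and 25.9 in the siTERT-labelled library. Of 29 bHLH genes, AHR, BHLHE40 and TFE3 were the 3 past 2-fold. SOX18 and SOX12 were lower, at 7.78 and 2.39 FPKM and 17.2 and 6.80 FPKM respectively in the control and the HKR3 library. In the list of SOX, GATA, T-box, RUNX and TEA-related genes, 2 of 24 were higher and 2 lower.

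Coregulators and Mediator subunits had 6 of 60 higher and none lower, with a median of 0.27 that was 0.42 after scaling to a common sum. CITED2, which competes with hypoxia-inducible factors for p300, was at 64.5 FPKM in control cells, 192 with HKR3 and 69.2 in the siTERT-labelled library. EP300, the acetyltransferase p300 itself, was at 12.95 FPKM in control cells, 30.5 with HKR3 and 14.7 in the siTERT-labelled library. CDK8, the kinase of Mediator, was at 3.41 FPKM in control cells, 9.54 with HKR3 and 4.01 in the siTERT-labelled library. Chromatin genes followed in small numbers, with 3 of 61 acetyltransferases, deacetylases and sirtuins higher, a share near the background. HDAC9, a class IIa deacetylase, was at 0.642 FPKM in control cells, 5.20 with HKR3 and 0.868 in the siTERT-labelled library, and SIRT1, a deacetylase that uses NAD, at 4.79 FPKM in control cells, 11.5 with HKR3 and 3.96 in the siTERT-labelled library. TET2, which oxidises methylated cytosine, was at 1.34 FPKM in control cells, 4.05 with HKR3 and 1.45 in the siTERT-labelled library. HEXIM1, the inhibitor of the elongation kinase P-TEFb, was at 28.1 FPKM in control cells, 69.7 with HKR3 and 27.8 in the siTERT-labelled library.

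**Figure D3:**
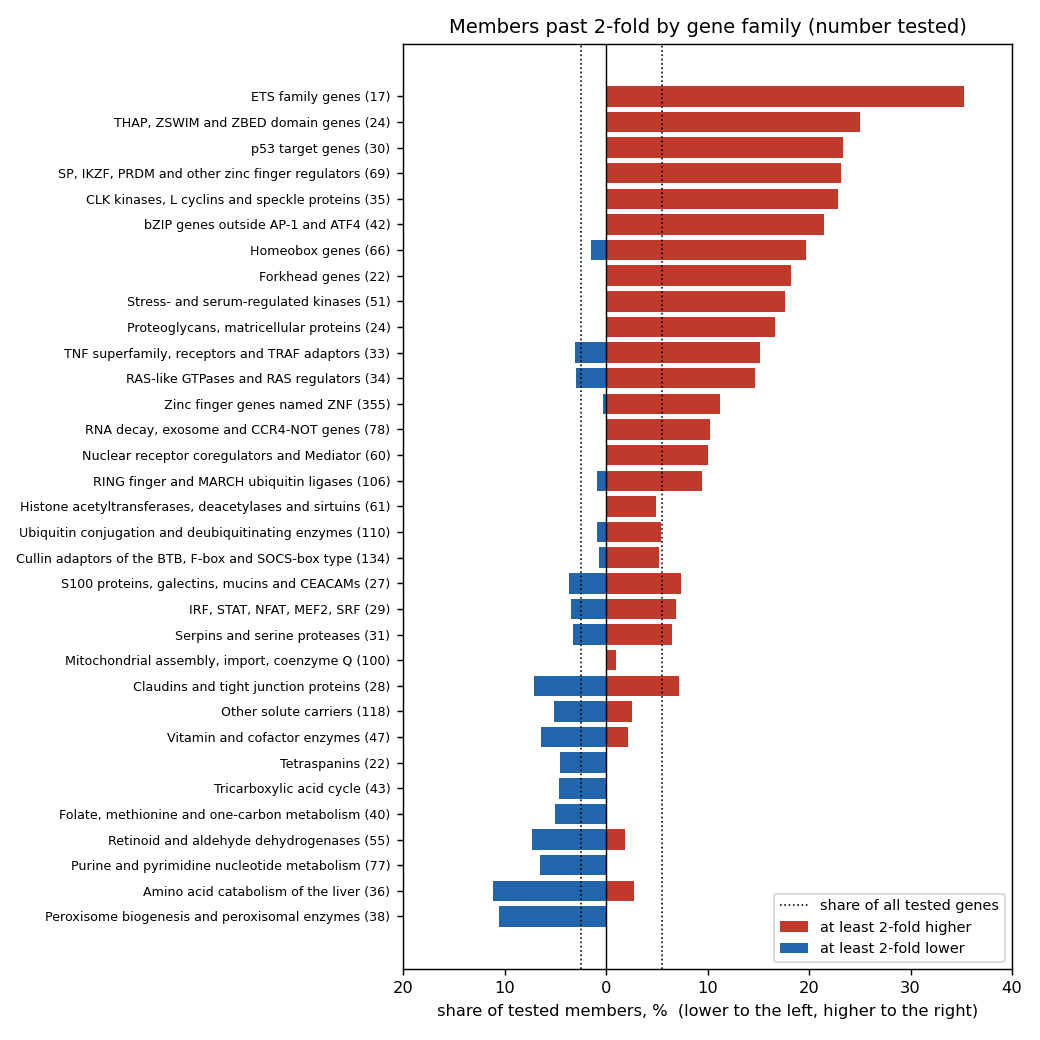
Share of tested members at least 2-fold higher (right of 0) or lower (left of 0) in the HKR3 library for a selection of gene families. Some families shown are not described in the text. The number tested is in brackets, and dotted lines mark the shares over all tested genes, 5.52% and 2.52%. Among the families shown, ETS genes have the highest share above, 6 of 17, and amino acid catabolism of the liver the highest share below, 4 of 36.

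RNA-binding and RNA decay genes were higher in several cases. Of 78 genes of RNA decay, 8 were higher and none lower, with a median of 0.23 that was 0.36 after scaling to a common sum. TENT5A, a poly(A) polymerase, was at 6.16 FPKM in control cells, 36.3 with HKR3 and 6.93 in the siTERT-labelled library. ZC3H12A, the RNase regnase-1 that cleaves inflammatory messages, was at 5.62 FPKM in control cells, 20.1 with HKR3 and 6.47 in the siTERT-labelled library. XRN1, the cytoplasmic exonuclease that degrades from the 5′ end, was at 1.49 FPKM in control cells, 4.22 with HKR3 and 2.01 in the siTERT-labelled library. CPEB4 and CPEB2, which control polyadenylation in the cytoplasm, were at 2.82 and 18.3 FPKM and 1.31 and 7.60 FPKM respectively in the control and the HKR3 library. MBNL2, a splicing regulator of the muscleblind family, was at 2.47 and 13.97 FPKM in that order. Of 138 RNA helicases and RNA-binding proteins, 9 were higher and 1 lower, near the background. CLK kinases, L cyclins and speckle proteins had 8 of 35 higher and none lower, with a median of 0.33. CLK1, which phosphorylates SR splicing factors, was at 10.4 FPKM in control cells, 54.9 with HKR3 and 9.67 in the siTERT-labelled library, and CCNL1, cyclin L1, at 16.4 FPKM in control cells, 78.3 with HKR3 and 13.8 in the siTERT-labelled library. Both were below the control in the library labelled siTERT. CLK1 transcripts are known to retain introns in part, and FPKM of a gene does not separate these.

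Signalling genes were split by family. Of 51 stress- and serum-regulated kinases, 9 were higher and none lower, with a median of 0.35. Among the 9 were CLK1, CLK3 and CLK4, which the list of CLK kinases above counts as well. PIM1, a survival kinase induced by cytokines, was at 5.44 FPKM in control cells, 30.9 with HKR3 and 5.44 in the siTERT-labelled library. TRIB1, a pseudokinase that targets CEBPA for degradation, was at 9.68 FPKM in control cells, 41.2 with HKR3 and 13.3 in the siTERT-labelled library. NUAK1, a kinase related to AMPK, was at 1.78 FPKM in control cells, 8.77 with HKR3 and 2.42 in the siTERT-labelled library. Among MAP kinases and the kinases upstream of them 3 of 51 were higher, a share near the background, and 2 lower. MAP3K14, the kinase NIK of noncanonical NF-kB signalling, was at 1.08 FPKM in control cells, 5.17 with HKR3 and 1.62 in the siTERT-labelled library. MAP2K6, which activates p38, was lower, at 11.2 FPKM in control cells, 2.93 with HKR3 and 7.78 in the siTERT-labelled library.

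Of 33 genes of the TNF superfamily, its receptors and TRAF adaptors, 5 were higher and 1 lower, with a median of 0.36. TNFRSF12A, the TWEAK receptor Fn14, was at 41.5 FPKM in control cells, 199.7 with HKR3 and 72.0 in the siTERT-labelled library. TNFRSF11B, the decoy receptor osteoprotegerin, was at 9.56 FPKM in control cells, 39.3 with HKR3 and 19.9 in the siTERT-labelled library, and TNFRSF21, a death receptor, at 20.4 FPKM in control cells, 56.9 with HKR3 and 24.2 in the siTERT-labelled library. All 3 receptors were above the control in the library labelled siTERT too. TNFSF4, the ligand OX40L, was at 3.40 and 1.10 FPKM in the control and the HKR3 library, with a difference of -0.97 after scaling to a common sum. Of 29 interleukins, cytokines and their receptors, 3 were higher and 1 lower, among them CLCF1, a ligand of the IL-6 family, at 2.42 FPKM in control cells, 14.4 with HKR3 and 2.95 in the siTERT-labelled library. SOCS1, an inhibitor of JAK kinases, was lower, at 15.9 FPKM in control cells, 4.80 with HKR3 and 12.6 in the siTERT-labelled library.

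Of 34 RAS-like GTPases and RAS regulators, 5 were higher and 1 lower, with a median of 0.17 that was 0.31 after scaling to a common sum. RASSF1, a scaffold of the Hippo pathway, was at 14.02 FPKM in control cells, 57.2 with HKR3 and 15.7 in the siTERT-labelled library, and GEM, a GTPase that inhibits calcium channels, at 1.97 FPKM in control cells, 8.53 with HKR3 and 2.21 in the siTERT-labelled library. Of 106 RAB, ARF and ARL genes, 6 were higher and 1 lower, near the background, led by ARL14 at 0.391 and 9.46 FPKM in the control and the HKR3 library. G protein subunits were represented by GNA13, an alpha subunit, at 15.2 FPKM in control cells, 58.5 with HKR3 and 18.0 in the siTERT-labelled library.

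At the cell surface and in the matrix, genes lay on either side of the control. OCLN, the tight junction protein occludin, was at 13.1 FPKM in control cells, 44.2 with HKR3 and 14.9 in the siTERT-labelled library, and PARD6B, a polarity protein, at 5.57 FPKM in control cells, 21.6 with HKR3 and 6.50 in the siTERT-labelled library. CLDN2, a claudin that forms cation pores, was lower, at 10.2 FPKM in control cells, 3.28 with HKR3 and 10.6 in the siTERT-labelled library, as was GJB1, the main connexin of hepatocytes, at 40.3 FPKM in control cells, 16.3 with HKR3 and 40.9 in the siTERT-labelled library. Of 24 proteoglycans and matricellular proteins, 4 were higher and none lower, but 17 lay below 0 and the median was -0.26, or -0.11 after scaling. SDC4, a syndecan, was at 56.6 FPKM in control cells, 140.0 with HKR3 and 75.9 in the siTERT-labelled library, and SPP1, osteopontin, at 1.25 FPKM in control cells, 5.48 with HKR3 and 3.93 in the siTERT-labelled library. Semaphorins showed both directions, with SEMA6A at 4.82 and 11.9 FPKM and SEMA6B at 23.3 and 7.69 FPKM in the control and the HKR3 library. SEMA4G was at 106 and 41.5 FPKM in that order. COL2A1, a fibrillar collagen of cartilage, was lower, at 66.3 FPKM in control cells, 22.7 with HKR3 and 60.2 in the siTERT-labelled library, and so was VWA1, a matrix protein, at 58.4 FPKM in control cells, 17.5 with HKR3 and 53.6 in the siTERT-labelled library.

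Of the ubiquitin genes, 1 of 36 TRIM proteins was higher and none lower. Of 106 RING finger ligases, 10 were higher and 1 lower, with a median of 0.14 that was 0.28 after scaling to a common sum. SIAH1, a ligase induced by stress, was at 16.6 FPKM in control cells, 46.5 with HKR3 and 16.2 in the siTERT-labelled library, and SMURF1, which acts on SMAD proteins, at 6.12 FPKM in control cells, 18.9 with HKR3 and 7.86 in the siTERT-labelled library. Of 110 conjugating and deubiquitinating enzymes, 6 were higher and 1 lower, and of 134 cullin adaptors 7 were higher and 1 lower. Both shares of higher genes were near the background. KLHL24 and KLHL15 were at 1.45 and 5.83 FPKM and 3.10 and 10.6 FPKM respectively in the control and the HKR3 library. MAP1LC3B, the autophagosome marker LC3B, was at 33.0 FPKM in control cells, 93.8 with HKR3 and 41.2 in the siTERT-labelled library.

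Of 30 genes known as p53 targets, 7 were higher and none lower, with a median of 0.15, or 0.30 after scaling, and 12 below 0. Hep3B cells are known to lack p53. BTG2, an antiproliferative protein, was at 2.68 FPKM in control cells, 12.6 with HKR3 and 3.31 in the siTERT-labelled library. BBC3, encoding PUMA, was at 3.48 FPKM in control cells, 16.1 with HKR3 and 3.37 in the siTERT-labelled library, and TP53INP1 at 0.481 FPKM in control cells, 5.998 with HKR3 and 1.07 in the siTERT-labelled library. GADD45A, a growth arrest gene outside this list and its count, was at 18.3 FPKM in control cells, 148 with HKR3 and 21.0 in the siTERT-labelled library. The library labelled siTERT was within 1 FPKM of the control for BTG2, BBC3 and the weakly expressed TP53INP1. It lay above the control for BTG2 and TP53INP1 and below it for BBC3.

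Enzymes of nucleotide and amino acid metabolism, transporters and secreted factors were found among the lower genes. Of 77 genes of purine and pyrimidine metabolism, 5 were lower and none higher, with a median of -0.29 that was -0.14 after scaling. UMPS, which completes synthesis of uridine monophosphate, was at 34.6 FPKM in control cells, 9.55 with HKR3 and 20.5 in the siTERT-labelled library, a difference of -1.76. DUT, which removes dUTP from the nucleotide pool, was at 67.4 FPKM in control cells, 21.2 with HKR3 and 51.7 in the siTERT-labelled library, and UNG, which is outside the list and removes uracil from DNA, at 118 FPKM in control cells, 50.9 with HKR3 and 103 in the siTERT-labelled library. NME3, a nucleoside diphosphate kinase, was at 70.1 FPKM in control cells, 29.6 with HKR3 and 52.3 in the siTERT-labelled library. SLC29A1, the nucleoside transporter ENT1, was at 41.6 FPKM in control cells, 13.2 with HKR3 and 33.5 in the siTERT-labelled library, and SLC29A4, of the same family, at 22.3 FPKM in control cells, 7.57 with HKR3 and 19.1 in the siTERT-labelled library. All 6 of these genes were below the control in the library labelled siTERT as well. All 5 enzymes of the list stayed 2-fold lower after scaling to a common sum.

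Of 36 genes of amino acid catabolism in the liver, 4 were lower, 1 was higher and 31 lay below 0, with a median of -0.46. GATM and GAMT, the enzymes that make creatine, were at 8.30, 2.97 and 7.95 FPKM and 233, 95.1 and 204 FPKM respectively in the control, the HKR3 library and the library labelled siTERT. SUOX, sulfite oxidase, was at 17.1, 6.61 and 15.1 FPKM in that order. BCAT1, a branched-chain aminotransferase, was at 28.98, 12.96 and 21.5 FPKM in that order, and its difference of -1.10 was -0.96 after scaling to a common sum. KYNU, kynureninase, was the higher member, at 8.17 FPKM in control cells, 35.6 with HKR3 and 10.4 in the siTERT-labelled library. Of 40 genes of folate and one-carbon metabolism, 2 were lower, with a median of -0.38 that was -0.23 after scaling. SARDH, which demethylates sarcosine, was at 21.7 FPKM in control cells, 8.43 with HKR3 and 19.7 in the siTERT-labelled library. AMT, the other, shares 60.5% of its sequence with another entry, so its level is uncertain, and its difference was -0.90 after scaling. GPT2 and PCK2, mitochondrial enzymes of alanine and of phosphoenolpyruvate, were the lower 2 of 43 genes of the tricarboxylic acid cycle list, whose median was -0.38 as deposited and -0.23 after scaling, at 32.5 and 13.7 FPKM and 70.0 and 32.6 FPKM respectively in the control and the HKR3 library. After scaling the difference of PCK2 was -0.93.

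Oxidoreductases and cofactor enzymes had more lower than higher members. Of 55 short-chain, retinoid and aldehyde dehydrogenases, 4 were lower and 1 higher, with a median of -0.44. ADH6, an alcohol dehydrogenase of the liver, was at 8.39 FPKM in control cells, 2.28 with HKR3 and 4.78 in the siTERT-labelled library. DHRS3, which reduces retinal to retinol, was higher, at 20.7 FPKM in control cells, 52.7 with HKR3 and 24.3 in the siTERT-labelled library. After scaling the differences of CBR1 and RDH5, -0.85 and -0.94, no longer reached 2-fold. Of 47 vitamin and cofactor enzymes, 3 were lower and 1 higher, with a median of -0.38 that was -0.24 after scaling. GCHFR, which restrains tetrahydrobiopterin synthesis, was at 86.1 FPKM in control cells, 36.2 with HKR3 and 68.3 in the siTERT-labelled library. HMOX2, the constitutive haem oxygenase, was at 10.3 FPKM in control cells, 3.99 with HKR3 and 8.56 in the siTERT-labelled library, whereas ALAS1, the first enzyme of haem synthesis, was higher, at 32.9 FPKM in control cells, 74.0 with HKR3 and 42.0 in the siTERT-labelled library. A gene of haem breakdown and a gene of haem synthesis thus lay on opposite sides of the control.

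Of 38 peroxisomal genes, 4 were lower and none higher, with a median of -0.20 that was -0.08 after scaling. PXMP4, a membrane protein of peroxisomes, was at 14.2 FPKM in control cells, 5.76 with HKR3 and 11.5 in the siTERT-labelled library. CAT, catalase, was at 83.9 FPKM in control cells, 40.5 with HKR3 and 75.9 in the siTERT-labelled library. The differences of CAT and ACOT13 were -0.88 and -0.89 after scaling to a common sum, so that 2 of the 4 stayed past 2-fold. Of 20 eicosanoid enzymes, 3 were lower and 1 higher, PLA2G4C, with a difference of 2.15. EPHX2, soluble epoxide hydrolase, was at 20.2 FPKM in control cells, 8.03 with HKR3 and 13.8 in the siTERT-labelled library. PLA2G7, which hydrolyses platelet-activating factor, was at 11.96 FPKM in control cells, 3.99 with HKR3 and 8.65 in the siTERT-labelled library. Among lipid enzymes UGCG and SGMS1, which place head groups on ceramide, were higher, at 10.7 and 25.1 FPKM and 4.35 and 16.0 FPKM respectively in the control and the HKR3 library. SPTLC3, a subunit of serine palmitoyltransferase, was lower, at 17.3 and 6.19 FPKM in that order.

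Solute carriers outside the amino acid and mitochondrial families had 6 of 118 lower and 3 higher, with a median of -0.16 that was -0.02 after scaling to a common sum. Over all tested genes the median was -0.02 as deposited and 0.12 after scaling. SLC13A5, a citrate transporter of hepatocytes, was at 25.3 FPKM in control cells, 8.34 with HKR3 and 20.1 in the siTERT-labelled library. SLC25A10, the dicarboxylate carrier of mitochondria, was at 59.6 FPKM in control cells, 22.5 with HKR3 and 43.5 in the siTERT-labelled library and shares 43.3% of its sequence with another entry. All 3 P-type ATPases past 2-fold, of 19, were lower, among them ATP7B, the copper transporter of hepatocytes, at 15.2 FPKM in control cells, 5.47 with HKR3 and 13.2 in the siTERT-labelled library. The difference of another, ATP2B2, was -0.94 after scaling. CPB2, a carboxypeptidase made by the liver that slows fibrinolysis, was at 28.3 FPKM in control cells, 8.01 with HKR3 and 24.7 in the siTERT-labelled library, and NAT8, an acetyltransferase of liver and kidney, at 36.1 FPKM in control cells, 10.9 with HKR3 and 34.3 in the siTERT-labelled library. In the hepatocyte marker list 1 of 10 was lower, APOA1, and the median was -0.45, or -0.29 after scaling. The difference of APOA1 was -0.88 after scaling.

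Other lower genes of ranks 11 to 40 came from different families. NRTN, the neurotrophic factor neurturin, was at 3.21 FPKM in control cells, 0.327 with HKR3 and 3.16 in the siTERT-labelled library. ANXA6, a membrane-binding annexin, was at 32.2 FPKM in control cells, 9.40 with HKR3 and 23.6 in the siTERT-labelled library, and CDK10, a kinase that partners cyclin M, at 57.4 FPKM in control cells, 17.8 with HKR3 and 39.7 in the siTERT-labelled library. CCR6, the receptor of the chemokine CCL20, was at 19.2 FPKM in control cells, 5.67 with HKR3 and 20.7 in the siTERT-labelled library. In CCR6 the library labelled siTERT lay above the control. MXD3, related to MXD1 but known for expression in dividing cells, was at 18.0 FPKM in control cells, 5.72 with HKR3 and 18.5 in the siTERT-labelled library, while MXD1 was higher. UBE2L6, the conjugating enzyme of ISG15, was at 11.02 FPKM in control cells, 3.25 with HKR3 and 8.03 in the siTERT-labelled library. ISY1-RAB43 is a readthrough transcript that shares 99.4% of its sequence with other entries, and RNASE4 shares 70.3%, so the levels of both are uncertain.

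Higher and lower genes also differed in properties that the choice did not use directly. Transcripts of higher genes had a median GC content of 46.1%, those of lower genes 57.5% and all tested genes 49.0%, over the transcript with the longest coding sequence per gene in GENCODE v29, an annotation of another build than the authors used. The median 3′ UTR was 1335 bases in higher genes, 642 bases in lower genes and 950 bases in all. The pentamer AUUUA, found in unstable messages, had a median of 2.59 per kilobase of 3′ UTR in higher genes, 0.586 in lower genes and 1.69 in all, and 40.6%, 9.85% and 26.8% of genes held 5 or more. A transcript of 1 exon belonged to 4.98% of higher genes and 6.20% of lower genes, against 2.30% of all. Median gene span was 30632 bases in higher genes, 14842.5 bases in lower genes and 31671.5 bases in all.

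Shares past 2-fold also varied with GC content and with mean level over all tested genes. With the tested genes in 5 equal groups by GC content, 7.40% of the lowest group were higher and 0.548% lower, and in the highest group 3.66% were higher and 5.21% lower. The median difference went from 0.19 to -0.22 over the same groups. By mean level, 6.79% of the weakest group and 2.19% of the strongest were higher, with 2.05% and 2.73% lower. The part of GC content, length and level in the family results was not tested.

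**Figure D4:**
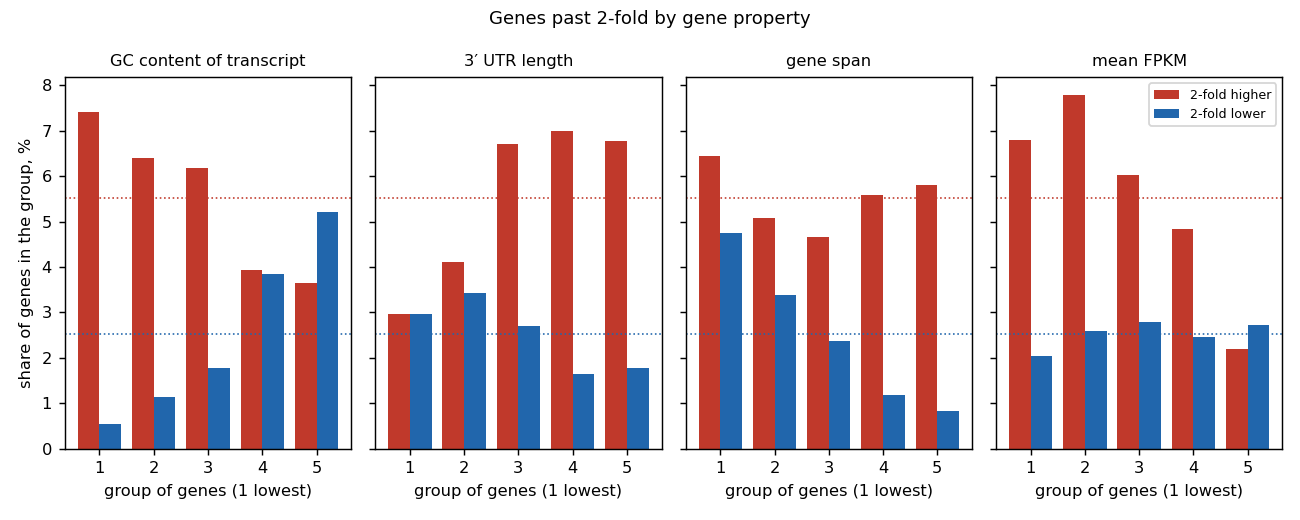
Share of genes at least 2-fold higher or lower (vertical axis, %) in each of 5 equal groups of the tested genes ordered by GC content of the transcript, 3′ UTR length, gene span and mean FPKM, with dotted lines at the shares over all tested genes. From the lowest to the highest group of GC content the higher share goes from 7.40% to 3.66% and the lower share from 0.548% to 5.21%.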

How the data were processed

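Messenger RNA of Hep3B cells was sequenced in 3 libraries, 1 per group. The deposited table holds FPKM per gene and library, calculated by the authors, with the hg19 build and the tools STAR 2.5.0, Cufflinks and Cuffdiff 2.2.1, per the submitters' processing notes. Settings, use of strand and number of reads were not given in the sources used here. Every column of values belonged to 1 of the 3 libraries.

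Symbols were matched for 19119 of 19869 entries, entries that share a symbol were summed and 4 short noncoding RNAs were left out, which gave 19862 genes. Of these, 10974 had a mean of at least 1 FPKM. Differences are on the log2(FPKM + 1) scale, which understates the change of low genes. Without replicates, genes were called by size alone, at 2-fold. The calculation was tested on simulated data. Named genes were ZBTB48, ranks 11 to 40 in each direction among genes with a symbol, and up to 6 members past 2-fold of each of 77 gene lists. The members and lists were chosen with earlier results of these data known, and 10 further lists, with the ZNF, THAP and CLK genes and their members, after values were seen. Genes with at least 50% of 31-base units shared with another entry were reported as uncertain. Some named genes and 1 gene list are not reported here.

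Fragments per library, estimated from low values and GENCODE v29 lengths, were 1.04e+07 for control cells, 1.16e+07 with HKR3 and 1.17e+07 for the library labelled siTERT, or scaled sizes if FPKM was scaled further. At the median length 1 FPKM was about 30.9 fragments in the control. Alternatives were other pseudocounts, filters and scalings. Gene coordinates come from RefSeq on GRCh38.p14, not from the authors' build. Python 3.11.15, pandas 2.3.3, numpy 2.4.6 and matplotlib 3.10.9 were used.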

Additional observations from a re-analysis of the deposited data

How the results depend on the processing

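With 1 library per group no library could be left out, and depth limits what can be said of genes below about 1 FPKM. The 606 higher genes became 874 with a pseudocount of 0.1 FPKM and 238 with one of 5 FPKM. The 277 lower genes became 488 and 93 under the same pseudocounts and 165 after scaling to a common sum. The smaller counts follow from the construction of the alternatives, since a larger pseudocount shrinks every difference and scaling raises every HKR3 value. The share of higher genes among those past 2-fold was 68.6% as deposited, and between 64.2% and 83.6% under the alternatives. Without a filter on low values there were 632 higher and 289 lower genes, and with a mean of at least 5 FPKM there were 419 and 221. Leaving out genes that share at least 50% of their sequence gave 593 and 265. Scaling to a common median log ratio, in place of a common sum, gave 629 and 254. Of 324 named genes, 324 stayed past 2-fold with a pseudocount of 0.1 FPKM, 288 after scaling to a common sum and 153 with a pseudocount of 5 FPKM, and none changed sign under these alternatives. A smaller pseudocount enlarges every difference, so no gene could drop out with 0.1 FPKM. No pseudocount can change a sign, and the shift by scaling was too small to do so. With a pseudocount of 5 FPKM the median of the ZNF genes went from 0.43 to 0.23, that of the other zinc finger regulators from 0.61 to 0.35, of homeobox genes from 0.23 to 0.14, of forkhead genes from 0.32 to 0.19, of ETS genes from 0.47 to 0.31, of TNF superfamily genes from 0.36 to 0.23, and of folate genes, short-chain dehydrogenases, vitamin enzymes, peroxisomal genes and solute carriers from -0.38, -0.44, -0.38, -0.20 and -0.16 to -0.23, -0.28, -0.23, -0.13 and -0.09. No paired analysis was possible because each group held 1 library and no spread could be estimated.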

Other observations

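Some small groups past 2-fold were noticed after their values were seen and are given as values only. Of 9 YPEL, SERTAD and TSPYL genes tested, 7 were higher and none lower, with YPEL2 at 1.25 FPKM in control cells, 6.58 with HKR3 and 1.73 in the siTERT-labelled library and SERTAD2, a transcriptional coregulator, at 6.97 FPKM in control cells, 25.2 with HKR3 and 8.17 in the siTERT-labelled library. CAV1 and CAV2, which form caveolae, had levels of 2.33 and 10.3 FPKM for CAV1 and 5.23 and 12.7 FPKM for CAV2 in the control and the HKR3 library. TXNIP, an arrestin-domain protein that limits glucose uptake, was at 14.97 FPKM in control cells, 71.1 with HKR3 and 11.7 in the siTERT-labelled library.

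Among 19 secreted factors of another added list, 5 were higher and 6 lower. IGFBP3, a carrier of insulin-like growth factors, was at 1.10 FPKM in control cells, 7.04 with HKR3 and 1.02 in the siTERT-labelled library, EDN1, endothelin 1, at 5.83 FPKM in control cells, 21.7 with HKR3 and 8.23 in the siTERT-labelled library, and ADM, adrenomedullin, at 12.00 FPKM in control cells, 41.3 with HKR3 and 12.6 in the siTERT-labelled library. COCH and STC2 were lower, with 81.5 and 29.9 FPKM for COCH and 45.1 and 19.3 FPKM for STC2 in the control and the HKR3 library.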
